A study of Arabidopsis thaliana with 6 samples.

Results

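Abscisic acid is the plant hormone of drought and seed dormancy, and 10 genes of its pathway were examined in seedlings of a mutant of the microRNA gene MIR163. They are 7 clade A protein phosphatases (ABI1, ABI2, HAB1, HAI1, HAI2, HAI3 and AHG3), the transcription factor ABI5, the dehydrin RAB18 and the synthesis enzyme NCED3, chosen by gene identifier. The authors' deposited table holds 19955 genes, and 8 of the 10 are among them. For HAI2 and HAI3 only sequence was examined, and their expression was not analysed here. RNA was sequenced from untreated whole seedlings of Arabidopsis thaliana Col-0, 7 days old, grown in long days, as 3 wild-type (WT) and 3 mir163 mutant libraries. Each genotype has 1 FPKM value per gene (fragments per kilobase, relative to all mapped fragments), so the spread between replicates is not known. The labels do not say which allele the mutant carries.

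In abscisic acid signalling, receptors of the PYR/PYL family bind the hormone and then hold clade A protein phosphatases 2C (PP2Cs) inactive. Without the hormone, these phosphatases keep the SnRK2 kinases switched off. Released kinases phosphorylate bZIP factors such as ABI5, which bind ABRE elements in the promoters of response genes such as RAB18. NCED enzymes cleave carotenoids in the step that limits synthesis of the hormone under drought. Transcripts of several of these phosphatases and of RAB18 are themselves induced by abscisic acid, and ABI5 acts mainly in seeds and during early seedling growth.

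RAB18 and ABI5 stood higher in mir163 than in WT, while the phosphatases and NCED3 differed by at most 15.5% of their WT level. Neither RAB18 nor ABI5 passed the threshold after Benjamini-Hochberg adjustment of the authors' p-values over 19264 genes, where each of the 8 genes had an adjusted p of 0.9996. These are the genes with an FPKM of 1 or more in a genotype. The adjusted threshold of 0.05 called 0 genes in the whole table, or 0% of those tested. Without adjustment, p was under 0.05 in the authors' deposited table for 192 genes, or 0.997% of those tested. Of these, 129 (0.67%) were higher and 63 (0.327%) were lower in mir163, and RAB18 and ABI5 were the 2 members among them.

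Whole-series values that touch these genes were as follows. MIR163 (AT1G66725), the mutated locus, had FPKM values of 20.5 (WT) and 0.0726 (mir163). Its p was 0.180 in the authors' deposited table, so the mutated locus itself did not pass the threshold, with an adjusted p of 0.9996 (Benjamini-Hochberg). Defining transcripts of shoot and root were present in both genotypes, with RBCS1A, the small subunit of Rubisco, at 18310 in WT and 15342 in mir163, and CASP1, a Casparian strip protein of the root endodermis, at 56.6 and 50.2. Guard cell genes, of the stomatal pores that abscisic acid closes, had near-equal values, with the transcription factor MYB60 at 19.4 and 19.6 and FAMA, which specifies guard cells, at 17.3 and 19.6. The middle gene of the table had an FPKM of 12.24 in WT and of 12.25 in mir163.

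Sequences are shown for the microRNA that the mutated locus encodes and for stretches before annotated starts of RAB18, ABI5 and AHG3. They were read from RefSeq TAIR10.1, while the submitters' processing notes name TAIR10. The mature miR163 is encoded on chromosome 1, positions 24884359 to 24884382, plus strand, and is printed with its seed (bases 2 to 8) in capitals.
miR163: uUGAAGAGgacuuggaacuucgau

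None of the 10 genes carried a close match to this microRNA. The best stretch of their annotated mRNAs differed from its complement at 8 positions in ABI2, at 10 in HAI2 and at 9 in each of the others, where a gap of 1 base was allowed and counted as a difference. The median over 19285 genes of the table was also 9. PXMT1, a known target, had a stretch with 1 difference.

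ABI5 (AT2G36270) and AHG3 (AT3G11410) each held 4 sites with the ABRE core ACGTG, on either strand, in the 250 bases before the annotated gene start. These windows are shown because the pair had equal numbers of sites and unlike ratios of mir163 to WT. The ratio was 3.17 for ABI5 and 0.879 for AHG3, the latter with a p of 0.627 in the authors' deposited table. Capitals mark the ABRE core, and a run CACGTG, which reads ACGTG on both strands, was counted as 1 site. The window of ABI5 is chr2:15207637-15207886 and that of AHG3 is chr3:3585851-3586100, both on the minus strand of TAIR10.1.
ABI5: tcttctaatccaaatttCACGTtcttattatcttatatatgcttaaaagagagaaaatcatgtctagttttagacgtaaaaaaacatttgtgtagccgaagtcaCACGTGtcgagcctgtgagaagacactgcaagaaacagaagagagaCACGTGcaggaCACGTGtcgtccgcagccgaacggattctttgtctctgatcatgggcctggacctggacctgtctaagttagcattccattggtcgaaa
AHG3: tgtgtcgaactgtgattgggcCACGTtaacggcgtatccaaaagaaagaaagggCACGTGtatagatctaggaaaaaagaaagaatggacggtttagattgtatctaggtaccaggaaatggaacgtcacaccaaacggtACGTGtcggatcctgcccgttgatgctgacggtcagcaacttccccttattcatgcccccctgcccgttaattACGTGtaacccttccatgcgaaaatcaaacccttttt

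RAB18 (AT5G66400) has a pair of annotated transcript starts 205 bases apart, and the upstream one overlaps the first exon of its neighbour AT5G66410 on the opposite strand. Only the 30 bases around each ABRE core are therefore shown. The stretches are chr5:26519593-26519622 for site 1, chr5:26519541-26519570 for site 2, chr5:26519448-26519477 for site 3 and chr5:26519363-26519392 for site 4, all on the minus strand of TAIR10.1. Site 2 begins 111 bases and site 3 begins 18 bases before the upstream start, and site 4 lies between the starts, 138 bases before the downstream one.
RAB18 site 1: caacgacgatgtACGTGtgtatgaaaatca
RAB18 site 2: aggaggagcattACGTGtcctgttagctac
RAB18 site 3: gattgatatgaaCACGTacttggtatcgac
RAB18 site 4: tttaaatacgaaCACGTatggcgaaacacc

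RAB18, a glycine-rich dehydrin that accumulates in drying tissue and in seeds, had the largest difference of the 8 genes on the log2(FPKM + 1) scale. Its gene spans positions 26518277 to 26519447 of chromosome 5 on the minus strand, with 2 exons. WT had an FPKM of 8.64 and mir163 of 21.2, which is a ratio of 2.46 and a difference of 1.20 in log2(FPKM + 1). Its p in the authors' deposited table was 0.0131. By that p RAB18 was at rank 88 of the 19264 genes tested, and by the size of a higher value on the log2 scale at rank 110. In WT its level lay above that of 40.2% of the genes in the table, and in mir163 above 65.6%. A ratio of at least 2 toward mir163 was found for 1.29% of the genes tested. The neighbour AT5G66410 shares 11 bases with RAB18 and had an FPKM of 24.9 (WT) and 27.8 (mir163). Whether the libraries kept the strand is not stated, so reads in these bases cannot be assigned to either gene.

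ABI5, the bZIP factor that arrests growth of the young seedling under abscisic acid, was near the lower limit of the table in WT. It lies on chromosome 2, positions 15204659 to 15207636, minus strand, with 4 or 5 exons. WT had an FPKM of 0.316 and mir163 of 1.00, which is a ratio of 3.17 and a difference of 0.61 in log2(FPKM + 1). The authors' deposited table gave it a p of 0.0322, at rank 152 of the genes tested. Only 0.17% of the genes in the table had a lower FPKM in WT. Its mir163 value alone brought it over the minimum of 1, so the filter fixed its direction. Every gene of the table had an FPKM of at least 0.342 in a genotype, so without the filter too ABI5 could only be counted as higher. There were 303 genes under 1 in WT and at least 1 in mir163, and 247 for which the genotypes were exchanged. A ratio between values this low can rest on few reads, and depth is unknown here.

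**Figure D1:**
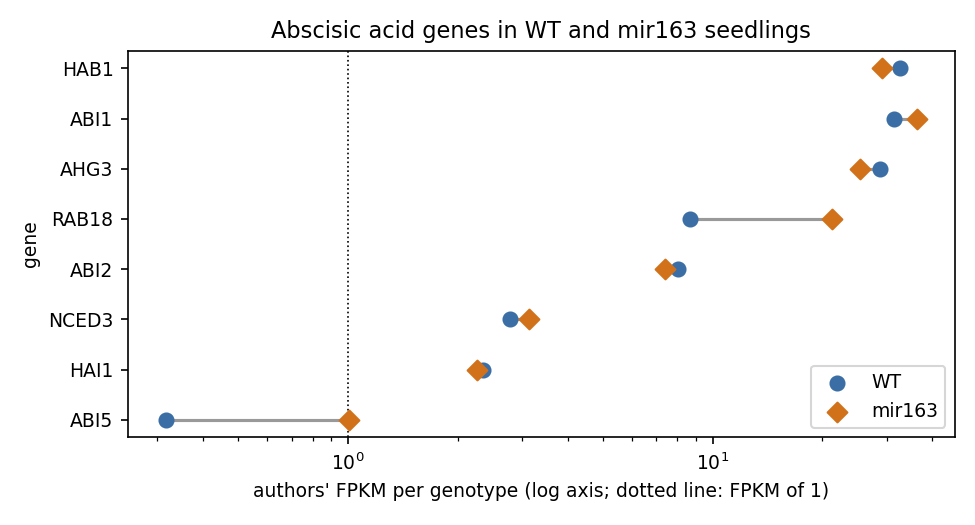
FPKM of the 8 abscisic acid genes in WT (circles) and mir163 (diamonds) seedlings, 1 value per genotype, on a log axis, ordered by the WT level; the dotted line marks an FPKM of 1. The symbols are far apart for RAB18 (8.64 and 21.2) and ABI5 (0.316 and 1.00) and nearly touch for the other 6 genes.

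The clade A phosphatases, which hold the pathway off, had values near those of WT. ABI1, HAB1 and AHG3 were the abundant ones. Together they made up 77.2% of the summed FPKM of the 6 clade A genes in the table in WT and 76.6% in mir163. ABI1 (AT4G26080; chromosome 4, positions 13219915 to 13222376, minus strand), the first of these phosphatases found through an insensitive mutant, stood at 31.5 in WT and 36.4 in mir163. HAB1 (AT1G72770; chromosome 1, positions 27389948 to 27393327, plus strand), whose loss makes seeds and stomata hypersensitive to the hormone, stood at 32.6 and 29.2. AHG3 (AT3G11410; chromosome 3, positions 3583782 to 3585850, minus strand), also called PP2CA and prominent in germination, stood at 28.8 and 25.3. Their ratios of mir163 to WT were 1.16, 0.897 and 0.879, and their p-values in the authors' deposited table were 0.598, 0.728 and 0.627.

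The other phosphatases were lower in level. ABI2 (AT5G57050; chromosome 5, positions 23087122 to 23089631, plus strand), the nearest relative of ABI1, had FPKM values of 8.01 (WT) and 7.40 (mir163). HAI1 (AT5G59220; chromosome 5, positions 23894404 to 23896939, minus strand), of the group named for strong induction by abscisic acid, stood at 2.35 and 2.25. HAB2 (AT1G17550), which is no member of the 10 genes but of the same clade, stood at 17.0 and 18.0. Their p-values in the authors' deposited table were 0.781 for ABI2, 0.901 for HAI1 and 0.818 for HAB2. The expression of AHG1, the remaining clade A phosphatase, was not analysed here. Summed over the 6 clade A genes in the table, FPKM came to 120.2 for WT and 118.6 for mir163, which gives a ratio of 0.987.

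Close relatives among these genes could in principle share reads. Over the 36 pairs of the 9 clade A coding sequences, nucleotide identity ran from 64% to 79.5%. The highest values were 79.5% for ABI1 with ABI2, 79.4% for HAB1 with HAB2 and 77.7% for HAI2 with HAI3. The longest run of identical bases was 33, between HAB1 and HAB2, and ABI1 and ABI2 shared at most 26. ABI1 and ABI2, the most similar pair, had ratios of 1.16 and 0.924. Their p-values in the authors' deposited table were 0.598 and 0.781, and sharing of reads was not tested. The read length was not known here. Like RAB18, ABI1 overlaps a neighbour on the opposite strand, AT4G26070, by 22 bases, and this gene had FPKM values of 4.56 (WT) and 4.36 (mir163).

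NCED3 (AT3G14440; chromosome 3, positions 4831286 to 4834015, minus strand, 1 exon), the carotenoid dioxygenase that drought induces most, was low in both genotypes. It had FPKM values of 2.79 (WT) and 3.13 (mir163), a ratio of 1.13, with a p of 0.681 in the authors' deposited table. In WT 17% of the genes in the table were at a lower level, and 18.7% in mir163. Its relatives NCED2, NCED5, NCED6 and NCED9 were not analysed here.

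The order of levels in WT was HAB1, ABI1, AHG3, RAB18, ABI2, NCED3, HAI1 and ABI5. In mir163 it was ABI1, HAB1, AHG3, RAB18, ABI2, NCED3, HAI1 and ABI5, so ABI1 and HAB1 exchanged places. FPKM is a value per length, which allows levels to be set side by side, but without a spread no pair of neighbours in this order can be said to differ. RAB18 stood 1.08 times above ABI2 in WT and 2.87 times above it in mir163. Of the 8 genes, 4 were higher and 4 lower in mir163, beside 51.3% higher and 48.7% lower over all genes tested. The median of their differences was 0.04 in log2(FPKM + 1), against 0.0064 over all genes tested.

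**Figure D2:**
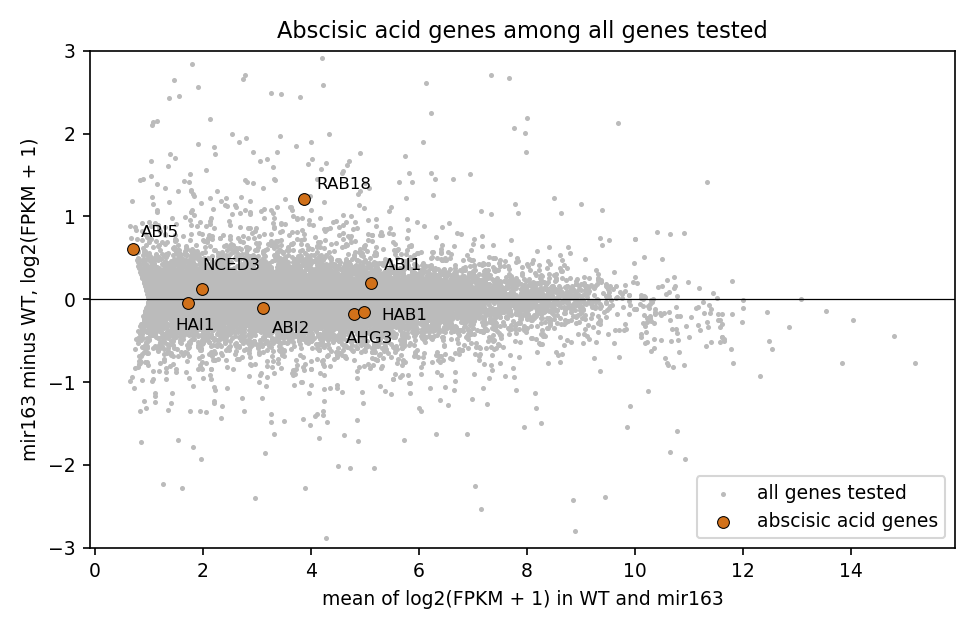
Difference between mir163 and WT in log2(FPKM + 1) against the mean of both, for all 19264 genes tested (grey) and the 8 abscisic acid genes (orange); 27 genes lie beyond the plotted range of 3 in either direction. RAB18, at 1.20, lies outside the dense band of genes of its level, ABI5 lies at the left edge, and the other 6 lie inside the band.

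The rest of the pathway was described through 9 lists by role, holding 83 genes, of which 69 were in the table and 65 were tested. None passed the threshold over all genes, 31 were higher and 34 lower in mir163, and the median difference was -0.03 in log2(FPKM + 1). Of the 65, 1 had a p under 0.05 in the authors' deposited table before adjustment, beside 0.997% of all genes tested. This was BGLU18, which releases abscisic acid from its glucose conjugate, with FPKM values of 16.8 (WT) and 32.2 (mir163), a ratio of 1.91 with a p of 0.0307.

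For supply of the hormone, all 5 synthesis genes tested besides NCED3 had a lower value in mir163, with a median difference of -0.14. Over all genes tested, 48.7% had a lower value. NCED3, described above, had a higher value in mir163, at 2.79 (WT) and 3.13 (mir163), with a p of 0.681 in the authors' deposited table. ABA1, the zeaxanthin epoxidase that makes the precursors, had values of 229.6 (WT) and 178.1 (mir163), and ABA4, which acts in neoxanthin formation, of 30.3 and 29.5. Among genes of breakdown and conjugation 5 of 7 had a higher value, with a median of 0.08. UGT71C5, which attaches glucose to the hormone, stood at 12.6 and 13.0. Of 5 transporter genes 3 had a lower value, with NPF4.6, an importer, at 39.4 and 35.0 and the exporter ABCG25 at 12.8 and 11.6. The lowest p of the synthesis and transport genes in the authors' deposited table was 0.444.

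For perception and signalling, 9 receptors were tested, of which 6 were higher and 3 lower, with a median of 0.08. Summed over the 9, their FPKM was 766.6 in WT and 757.4 in mir163, above that of the 6 clade A phosphatases in the table in both genotypes. PYL4 stood at 368.8 and 362.3 and PYR1 at 135.1 and 145.8. The SnRK2 kinases split evenly, with 5 of 10 higher and a median of -0.02. SNRK2.2, a main kinase of the pathway, stood at 50.4 and 74.5, with a p of 0.229 in the authors' deposited table, and SNRK2.10, which responds to osmotic stress, at 58.5 and 49.1.

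Of 6 other transcription factors 3 had a higher value. ABF3 and ABF4, bZIP factors that act in vegetative tissue where ABI5 is low, stood at 58.0 and 17.3 in WT and at 48.9 and 16.0 in mir163. ABF1, named after its values were seen, stood at 1.38 and 3.95, with a p of 0.409 in the authors' deposited table. All 5 regulators of ABI5 protein tested had a lower value, with a median of -0.04, beside 48.7% lower over all genes tested. The lowest p of the 5 in the authors' deposited table was 0.416. AFP3 and AFP4, which bind ABI5 and damp its action, stood at 13.9 and 15.1 in WT and at 13.4 and 11.9 in mir163.

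Response genes lay on both sides of WT. Of 17 tested, 9 were higher and 8 lower, with a median of 0.11, and the lowest p among the 20 in the authors' deposited table was 0.217. COR15B, named after values were seen, had the largest difference of the 17, at 1.19. It stood at 0.071 in WT and 1.44 in mir163, with a p of 0.229 in the authors' deposited table. Only its mir163 value brought COR15B past the filter, so its direction was fixed. The other dehydrins, set beside RAB18 after values were seen, were COR47, ERD10, ERD14, XERO1 and XERO2. ERD14 had FPKM values of 339.2 (WT) and 378.2 (mir163), COR47 of 208.4 and 272.4, and ERD10 of 66.3 and 75.2. XERO2 stood at 19.6 and 13.2, a ratio of 0.675, and XERO1 was under 1 in both genotypes. The ratios of ERD14, COR47 and ERD10 were 1.12, 1.31 and 1.13, beside 2.46 for RAB18. RD29B and RD29A were also named after values were seen. RD29B, a response gene with 4 ABRE cores in its window, stood at 0.923 and 0.838, and RD29A, which drought and cold also induce, at 9.44 and 10.3.

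**Figure D3:**
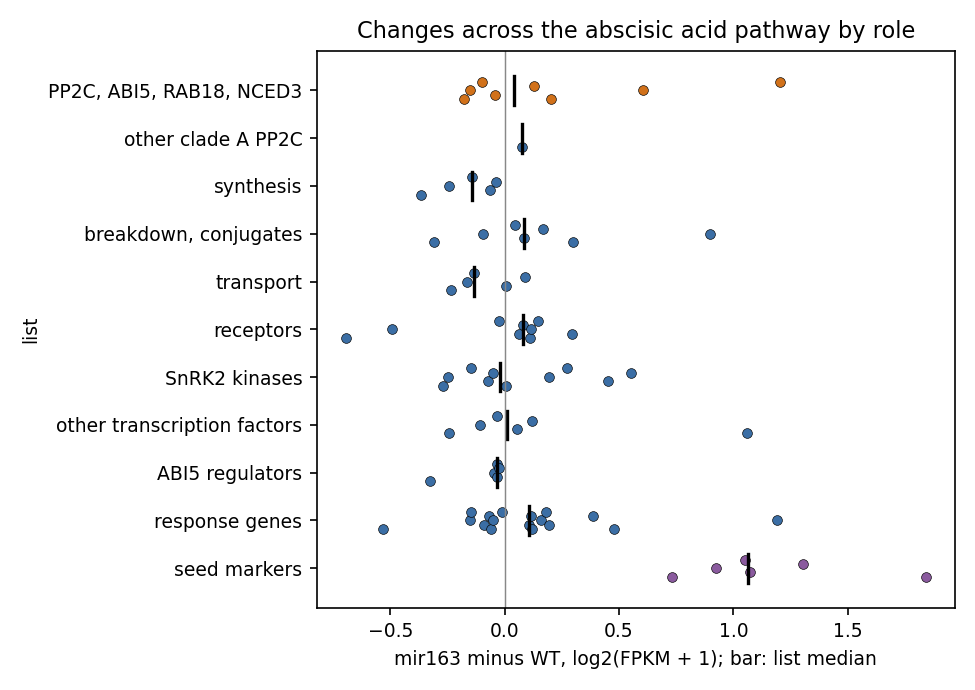
Difference between mir163 and WT in log2(FPKM + 1) for each gene tested (points), by list, with the list median as a bar. The lists of the pathway centre near 0, with medians from -0.14 to 0.11, while the 6 seed markers tested all lie above 0.7. Of these 6, 3 passed the filter only through their mir163 value.

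RAB18 and ABI5 are also expressed in seeds, so the level of seed transcripts is given beside them. Of 14 seed markers (storage proteins, oil-body proteins and late embryogenesis proteins), 8 were in the table. All 8 had a higher value in mir163, beside 51.3% higher over all genes tested. Their summed FPKM was 6.14 in WT and 23.3 in mir163, with single genes from 0.138 to 1.43 in WT and from 0.791 to 7.71 in mir163. CRA1, a cruciferin storage globulin, stood at 1.43 and 7.71, PER1, a peroxiredoxin of seeds, at 1.39 and 3.95, and OLEO2, an oil-body oleosin, at 0.861 and 3.60. Their p-values in the authors' deposited table were 0.00125 for CRA1, 0.0493 for PER1 and 0.0344 for OLEO2, where 0.997% of all genes tested had a p under 0.05. The same source gave a p of 0.077 for SESA5, 0.141 for EM6, 0.230 for SESA1, 0.401 for OLEO1 and 0.536 for CRU3. Of the 6 seed markers tested, 3 passed the filter only through their mir163 value. Every gene of the table had an FPKM of at least 0.342 in a genotype. SESA1, SESA5 and OLEO1, at 0.275, 0.138 and 0.335 in WT, could therefore only be counted as higher. None of the 8 was at 0 in either genotype. The part of seed transcripts in the values of RAB18 and ABI5 was not tested, and in RNA of whole seedlings a larger share of such tissue and more RNA per cell cannot be told apart. Evening-phased clock genes, a list added after values were seen, differed too. All 9 were higher in mir163, and 7 of them (PRR5, ELF4, LUX, ELF3, FKF1, TOC1 and GI) had a p under 0.05 in the authors' deposited table. Over all genes tested, 0.997% had such a p. PRR5 and FKF1, at 0.469 and 0.105 in WT, passed the filter only through their mir163 value, so their direction was fixed. PRR5 and ELF4 were among the genes that shared the lowest adjusted p, 0.0876 (Benjamini-Hochberg), which did not pass the threshold. The summed FPKM of the 9 was 486.5 in WT and 2342 in mir163, and without GRP7 it was 354.3 and 605.4. GRP7 and GRP8, which encode RNA-binding proteins, held most of the sum, with FPKM values of 132 and 1737 for GRP7 and 323 and 470.1 for GRP8. Their part in these values was likewise not tested.

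Motifs were sought before the gene starts of the 10 genes, since ABI5 and the ABF factors bind the ABRE core. Of the 10 windows 6 held at least 1 ABRE core, beside 22.9% of the 27443 windows of protein-coding genes on the nuclear chromosomes. There were 4 sites in HAI2, AHG3 and ABI5, 3 in RAB18, 2 in HAI3 and 1 in HAB1. The windows of ABI1, ABI2, HAI1 and NCED3 held none. At least 3 sites were found in 1.1% of all windows. Counts depended on the annotated start. HAI1 had 2 sites before a transcript start 237 bases downstream, and ABI5 had none before a start 976 bases downstream.

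Other motifs were rarer in these windows. The G-box CACGTG, which contains the ABRE core, occurred in ABI5 with 3 sites and in AHG3 with 1, beside 6.49% of all windows with any. The DRE core CCGAC, bound by drought and cold factors, occurred in AHG3, where it shares 1 base with an ABRE core, and in 12% of all windows. The evening element AAAATATCT occurred in RAB18 and ABI2, beside 2.36% of all windows. Before the downstream start of RAB18 there were 2 ABRE cores, 1 DRE core and 0 evening elements. All motifs were sought on both strands, and a match is a run of letters, not a site shown to be bound.

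**Figure D4:**
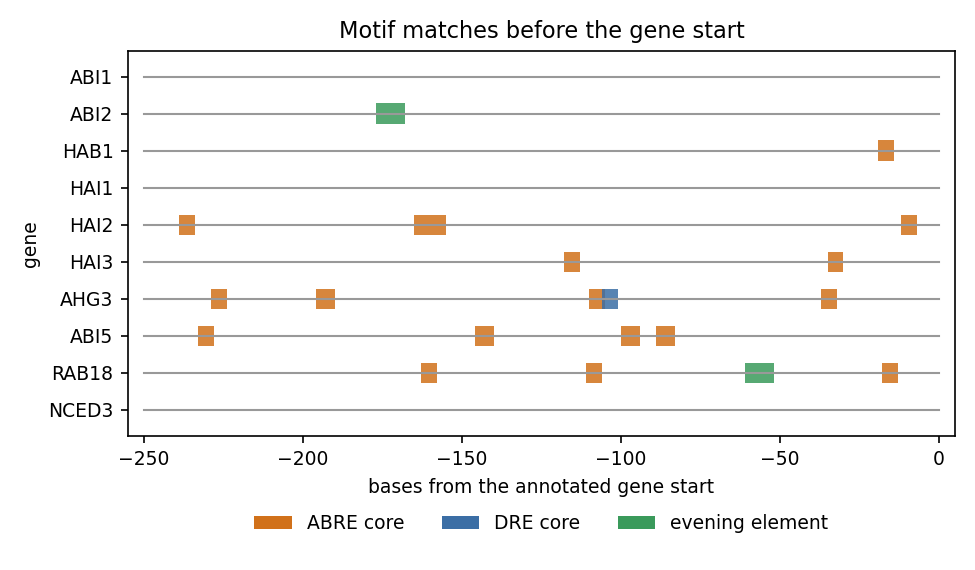
Positions of ABRE cores (orange), DRE cores (blue) and evening elements (green) in the 250 bases before the annotated start of each of the 10 genes; the horizontal axis is the distance in bases from that start. ABI5, AHG3, HAI2 and RAB18 have 3 or 4 ABRE cores each, and ABI1, HAI1 and NCED3 have no match to any of these motifs.

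Of the 8 genes, AHG3 and ABI5 had 4 sites and RAB18 had 3. ABI5 stood at 3.17 times and RAB18 at 2.46 times its WT level. The ratio of AHG3 was 0.879, with a p of 0.627 in the authors' deposited table. Whether the number of sites bears on these values was not tested. Over all genes tested, grouped by ABRE core count after the values of the 8 genes were known, the median difference was 0.01 with 0 sites and -0.0033 with 3 or more. The share of genes at least 2-fold higher in mir163 was 1.03% with 0 sites (147 of 14228) and 5.19% with 3 or more (12 of 231). The share at least 2-fold lower was 0.759% and 1.73% in the same groups. The windows also differed in their median content of G and C bases, 30.4% with 0 sites and 38% with 3 or more. No test was run on the shares of genes, and the part of base content in them was not tested.

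RAB18 and ABI5 were 2 of those 12 genes with ABRE-rich windows. Of the others, LEA18, AT3G15670, OLEO1 and CRU3 encode late embryogenesis, oil-body or seed storage proteins, and PCL1 (also called LUX) and BOA encode related evening-phased clock factors. The remaining 4 were NUDT8, PDC2, AT2G38465 and AT2G38905. LEA18 had FPKM values of 3.33 (WT) and 10.6 (mir163), and PDC2, a pyruvate decarboxylase, of 8.04 and 28.3. Of the 12, 6 were under 1 in WT and passed the filter only through their mir163 value, so their direction was fixed. The same held for 52 of the 147 genes with 0 sites. Among genes at 1 or more in WT the shares were 0.678% with 0 sites (95 of 14017) and 2.69% with 3 or more (6 of 223). RAB18, whose values were known before the grouping, is still counted in the 2.69%.

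**Figure D5:**
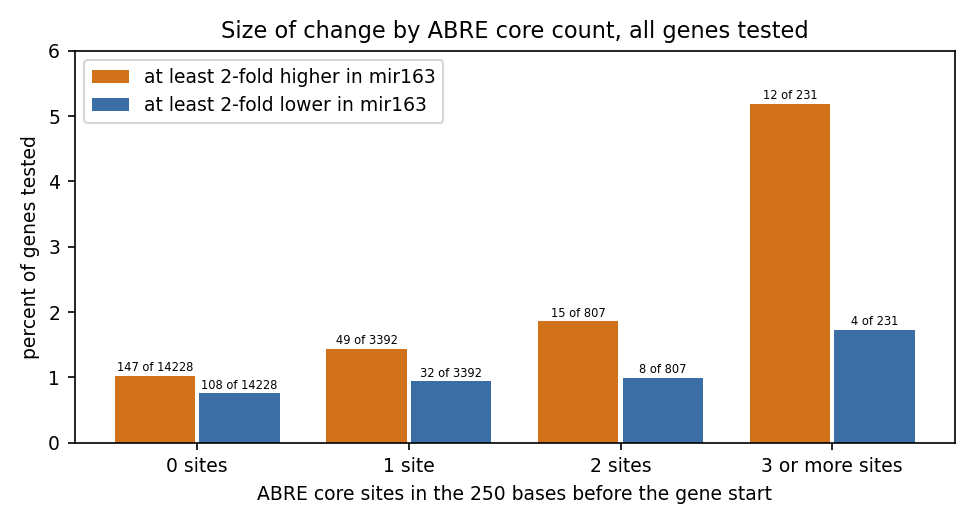
Percent of genes tested that were at least 2-fold higher (orange) or lower (blue) in mir163, by the number of ABRE cores in the 250 bases before the gene start; the numbers above the bars give the genes counted. The orange bar is 1.03% with 0 sites and 5.19% with 3 or more, where it stands for 12 genes that include RAB18 and ABI5. Of these 12, 6 passed the filter only through their mir163 value, so their direction was fixed. The grouping was made after the values of RAB18 and ABI5 were known.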

How the data were processed

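The authors deposited 1 table of 19955 genes, holding for each genotype an FPKM value, and for each gene a log2 fold change and a p-value without adjustment. Per the file headers the log2 fold change compares mir163 with WT, and it equals the log2 ratio of the authors' FPKM values. TopHat, Cufflinks, bcl2fastq 2.17.1.14 and TAIR10 are named, without roles, per the submitters' processing notes. How 3 libraries became 1 value, or which test gave the authors' p-values, was not stated per the labels or headers. The labels call the replicates biological. Depth is unknown, so no interval or detection limit is given. Plain FPKM is relative to each total, so a few abundant transcripts can shift all others.

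Genes with an FPKM of at least 1 in a genotype were tested (19264), with Benjamini-Hochberg adjustment of the authors' p-values. Ratios are of plain FPKM, and differences are in log2(FPKM + 1), which understates low genes. limma, named as a choice where values per library exist, could not be fitted. The members, lists and groupings were chosen with earlier results of these data known. The rule for named genes took the 10 members, HAB2, AHG1, the 2 highest means of each list and any list gene at an unadjusted p under 0.05. Of these, LHCB1.3 and PRP3 are given here only by name, and other genes were named after values were seen. No likeness between genes was computed from 2 columns. Positions, transcripts and windows come from RefSeq TAIR10.1, which held 19672 of the gene identifiers. Coding sequences were aligned globally, pair by pair. The calculations used Python 3.11.15, numpy 2.4.6, pandas 2.3.3, scipy 1.17.1, Biopython 1.88 and matplotlib 3.10.9, and the adjustment was tested on simulated data.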

Additional observations from a re-analysis of the deposited data

How the results depend on the processing

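No paired analysis was possible because the table gives 1 value per genotype, and leaving out each replicate was not run for the same reason. Without a filter, or at a minimum FPKM of 5, Benjamini-Hochberg adjustment of the authors' p-values again called 0 of the abscisic acid genes and 0 of all genes, as did adding a 2-fold minimum. At the stricter minimum 5 of the 8 members were tested and 1, RAB18, had an unadjusted p under 0.05 in the authors' deposited table, since ABI5, HAI1 and NCED3 fell under the minimum. The same minimum left 3 higher values in breakdown and conjugation, 0 in transport and 1 among transcription factors, where fewer genes were tested. Quantile normalization left 1 higher value in transport, and median-ratio scaling left 4 higher values among the SnRK2 kinases in place of 5. The causes were not tested. Each of the 8 members kept its direction under quantile normalization, though that of ABI5 was fixed by its inclusion in the table. The pseudocounts cannot turn a sign, and median-ratio scaling divided by only 1.005, so those alternatives could not test the direction of the members. The difference of ABI5 was 1.41 with a pseudocount of 0.1 and 0.18 with 5, and that of RAB18 was 0.94 with 5. Values under an FPKM of 1, ABI5 in WT among them, are limited by a depth that is unknown.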
